A study of Canis lupus familiaris with 8 samples.

Results

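Translation initiation and elongation factor genes were followed in dog retina (Canis lupus familiaris) prepared in 2 ways. The members were all gene symbols that begin with EIF or EEF followed by a digit, apart from 1 matching gene that is not reported here, which gave 58 of the 12824 genes in the deposited table. Of these, 49 carried an EIF symbol and 9 an EEF symbol. The symbol does not always state the role. By role, 38 members were initiation factors, 6 acted in elongation, and 14 were kinases, binding proteins, modifying enzymes or genes of other functions. All animals were male wild-type Beagles of 31 weeks. Right eyecups were cut into quadrants and frozen in embedding medium without fixation (fresh-frozen, 4 libraries). Left eyecups spent 3 h in 4% paraformaldehyde (PFA, a crosslinking fixative) and a further 24 h in 2% PFA at 4 °C, then 24 h each in 15% and 30% sucrose, before they were frozen in the same medium (PFA-fixed, 4 libraries). Fresh-frozen RNA came from a micro-scale column kit, and fixed RNA from a kit for paraffin-embedded tissue with 18 h of proteinase K at 56 °C. Side of the eye, fixation and extraction kit therefore cannot be told apart. The labels do not say which libraries came from the same dog, nor whether tissue was taken by laser capture, so p-values reflect only how far these 8 libraries vary.

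Protein synthesis starts when initiation factors bring the small ribosomal subunit and the initiator tRNA to the capped end of an mRNA, scan to the start codon and join the large subunit. Elongation factors then deliver each charged tRNA and move the ribosome along by codons. The best known control points are eIF2, which stress kinases phosphorylate, the cap-binding protein eIF4E, which binding proteins hold back, and the translocase eEF2, which its own kinase inhibits. In retina, photoreceptors renew their outer segments throughout life and so keep up a high rate of protein synthesis.

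Levels are given as log2 CPM, where CPM is a gene's count relative to the total of its library, as deposited by the authors, and changes as the PFA-fixed mean minus the fresh-frozen mean on that log2 scale. A gene was called when limma, fitted over all genes, gave an adjusted p under 0.05. Because a change in log2 CPM is relative to the rest of a library, 4 other scalings were run. They were quantile normalization, subtraction of each library's median over all genes (median centring), and centring each library on the mean or on the median of 22 rod photoreceptor genes (rod-mean and rod-median scaling). The effective depth was 21670000 to 22760000 reads in fresh-frozen and 11040000 to 15410000 in PFA-fixed libraries. The lowest value of any member corresponded to about 45 reads in fresh-frozen and about 29 in PFA-fixed libraries, so no member was near the lower end of the table. Across genes, libraries of a group correlated at 0.977 to 0.99 and libraries of different groups at 0.832 to 0.862. The rod markers that define retina were present in both groups, with a sum over 22 genes of 33500 to 39000 CPM in fresh-frozen and 37500 to 42500 CPM in fixed libraries. Of these 22 genes, 12 were called higher and 4 lower, with changes from -0.26 to 1.11 and a median of 0.29. The genes behind the rod-mean and rod-median scalings were therefore not constant between the groups. Summed markers of sclera, pigment epithelium, vessels and microglia were much lower after fixation. The sum for Müller glia, which are cells of the retina itself, was lower by less. The sum over 11 sclera and fibroblast genes was 8030 to 11300 CPM against 191 to 216 CPM, and 3 of these genes were under 1 CPM in fixed retina. For 10 melanin and pigment epithelium genes the sums were 3060 to 4510 against 87.1 to 161 CPM, with 2 genes under 1 CPM in fixed retina. For 9 vascular genes they were 1900 to 2740 against 409 to 481 CPM. The 8 microglia and macrophage genes summed to 230 to 372 against 31.7 to 50.1 CPM, with 1 gene under 1 CPM in fixed retina. The 7 Müller glia genes summed to 5340 to 7480 against 3020 to 4070 CPM. Of these, 4 were called lower, among them RLBP1 (-3.17), which is also on the pigment epithelium list. The other 3 were not called (SLC1A3 -0.02, AQP4 -0.2, DKK3 -0.21). Apart from that of the rod genes, none of these sums overlapped between the groups that every change given here compares. The part of these cell types in the changes of the translation factors was not tested. In bulk tissue, fewer cells of a type and less RNA per cell cannot be told apart.

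The factors that carry out elongation fell, while initiation factors went both ways and mostly by little. Of the 58 members, 40 were called (69%), against 68.7% of all genes, so the share of calls was that of the table as a whole. Of these, 14 rose and 26 fell, where 33.9% of all genes rose and 34.7% fell. Rod-mean scaling gave 9 members higher and 36 lower, where 2609 of all 12824 genes were higher and 6305 lower. Rod-median scaling gave 3 members higher and 44 lower, where 1726 of all genes were higher and 7432 lower. The median change of the members was -0.17, against -0.02 for all genes, and 51 of 58 (87.9%) lay within 2-fold, against 75.6% of all genes. Called changes of at least 1.5-fold were seen in 10 members that rose and 7 that fell. Over all genes 43.3% passed this rule, 20.6% as rises and 22.7% as falls. The groups did not overlap in 12 members that were higher and 27 that were lower in fixed retina. Over all genes 62.9% did not overlap, 31.3% higher and 31.6% lower. The 5 largest falls were those of EIF5A2, EEF1D, EEF2, EEF1A2 and EIF3E, and 4 of these 5 act in elongation. The 5 largest rises were those of EIF4E1B, EEF1AKMT2, EIF4E2, EEF1AKMT4 and EEF1AKMT1. The 3 EEF1AKMT genes encode enzymes that methylate the tRNA-delivering elongation factor. The sum over all members was 7620 to 8150 CPM in fresh-frozen and 6120 to 6620 CPM in fixed libraries.

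**Figure D1:**
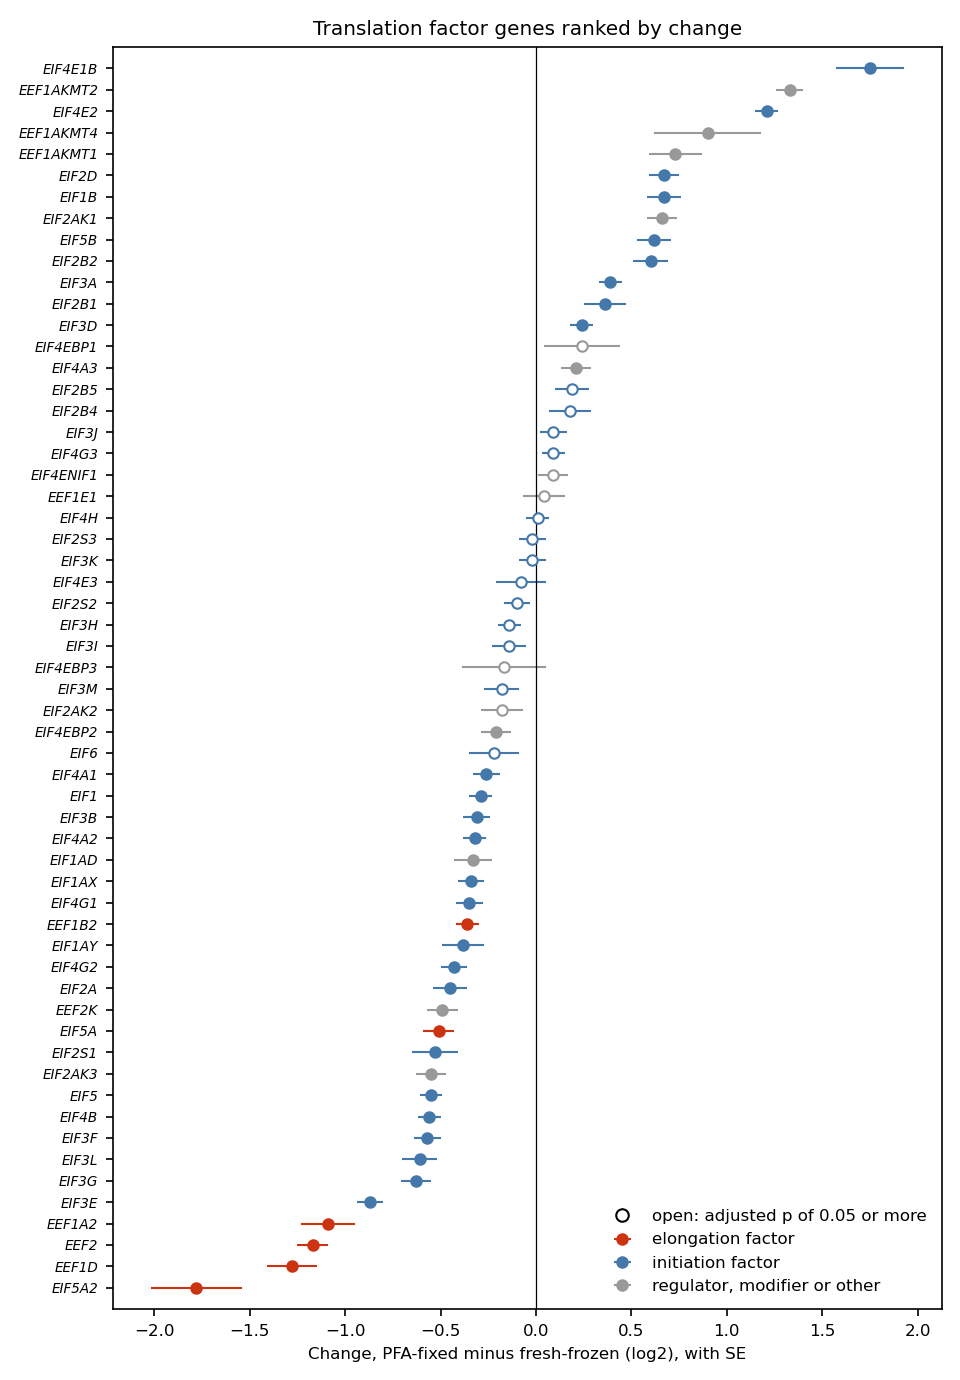
Change of each of the 58 members in PFA-fixed against fresh-frozen retina (log2, x axis, bars are the SE of the limma fit), ranked, with initiation factors, elongation factors and other members by role in 3 colours and open points for genes that were not called. The 6 elongation factors all lie left of 0, between -1.78 and -0.36, whereas initiation factors run from -0.87 to 1.75.

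All 4 measured elongation factors with an EEF symbol fell. EEF2, the translocase that moves the ribosome by a codon, stood at 10.34, 10.19, 10.32 and 10.09 log2 CPM in fresh-frozen replicates 1 to 4 and at 9.07, 9.16, 9.16 and 8.89 in PFA-fixed replicates 1 to 4. Every fixed library was below every fresh-frozen one, and the change was -1.17 ± 0.08 (SE, 2.24-fold; limma adjusted p = 1.72e-07). EEF1A2, the form of the tRNA-delivering factor found in neurons and muscle, was at 8.41, 8.17, 8.93 and 8.38 in fresh-frozen and 7.48, 7.34, 7.20 and 7.51 log2 CPM in fixed libraries. Fresh-frozen replicate 3 was the highest, the groups did not overlap, and the change was -1.09 ± 0.14 (SE; limma adjusted p = 2.33e-05). The exchange complex eEF1B reloads the delivering factor with GTP. Its subunit gene EEF1D was at 7.77, 7.48, 7.42 and 7.34 in fresh-frozen and 6.18, 6.46, 6.36 and 5.89 log2 CPM in fixed libraries, a fall of 2.42-fold (-1.28 ± 0.13, SE; limma adjusted p = 2.75e-06). The other measured subunit gene, EEF1B2, was at 7.18, 7.0, 7.08 and 7.01 against 6.63, 6.73, 6.73 and 6.76 log2 CPM. It fell by less (-0.36 ± 0.06, SE; limma adjusted p = 0.000411), again without overlap between the groups.

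The eIF5A proteins were named as initiation factors and act mainly in elongation, where they help ribosomes past sequences that are slow to join. EIF5A was at 6.88, 6.79, 6.92 and 6.77 log2 CPM in fresh-frozen and 6.15, 6.5, 6.29 and 6.38 in fixed libraries, and fell by 0.51 ± 0.08 (SE; limma adjusted p = 0.000149). Its paralogue EIF5A2 was at 5.02, 5.20, 4.42 and 5.06 against 3.32, 2.40, 3.46 and 3.41 log2 CPM. This was the largest fall among the members (-1.78 ± 0.24, SE, 3.42-fold; limma adjusted p = 3.92e-05). PFA-fixed replicate 2 was lowest, and without it the change was -1.53. All 6 elongation genes therefore fell, with a median change of -1.13, where 34.7% of all genes fell. Their sum went from 1860 to 2210 CPM in fresh-frozen to 919 to 1020 CPM in fixed libraries. These 6 kept their sign and their call without each library in turn and under every scaling tried.

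**Figure D2:**
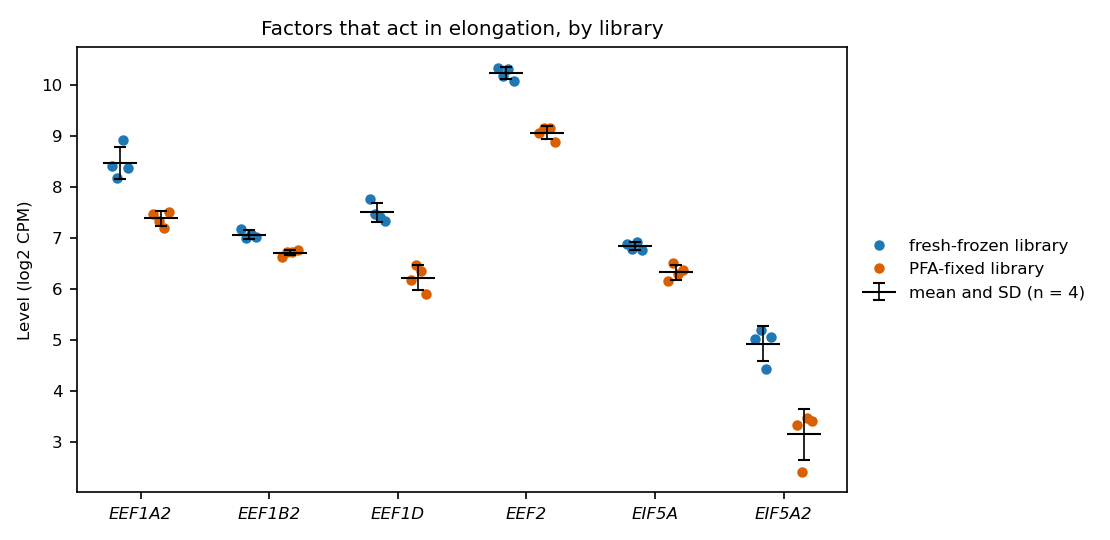
Level in log2 CPM (y axis) of the 6 genes that act in elongation in each fresh-frozen and PFA-fixed library (points), with the mean and SD of each group of 4. In each gene all fixed libraries lie below all fresh-frozen ones, with the smallest distance for EEF1B2.

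The comparison of initiation with elongation depended on how the classes were drawn and on whether their mean or median was taken. By symbol, 11 of 49 EIF genes rose, 21 fell (65.3% called, against 68.7% of all genes) and the median change was -0.17. Of 9 EEF genes, 3 rose, 5 fell (88.9% called) and the median was -0.36. The mean over EEF genes minus the mean over EIF genes was 0.01 ± 0.07 log2 CPM in fresh-frozen and -0.06 ± 0.07 in fixed libraries (SD, n = 4 each), and the libraries of the groups overlapped. With medians in place of means this gap went the other way without overlap, from -0.20, -0.44, -0.44 and -0.29 in fresh-frozen to 0.49, 0.78, 0.68 and 0.31 in fixed libraries. The middle EEF gene was EEF2K in every fresh-frozen library and EEF1D in every fixed one, and both genes fell (-0.49 and -1.28). The turn of the median thus reflects a change of rank among the 9 EEF genes, not a rise of either gene. By role, 9 of 38 initiation factors rose and 16 fell (65.8% called, against 68.7% of all genes). Their median was -0.14, while none of the 6 elongation factors rose. Initiation factors by role then counted 6 higher and 25 lower under rod-mean scaling, and 2 and 29 under rod-median scaling. All 12824 genes counted 2609 higher and 6305 lower, and 1726 and 7432, under these scalings. The mean over elongation factors minus the mean over initiation factors was 1.34, 1.25, 1.30 and 1.25 in fresh-frozen replicates 1 to 4, and 0.28, 0.25, 0.31 and 0.34 in PFA-fixed replicates 1 to 4. The gap between the class means was smaller by 0.99 after fixation. The gap between the class medians shrank by less, from 1.29, 1.10, 1.13 and 1.06 to 0.62, 0.88, 0.64 and 0.82, again without overlap. Such gaps are taken within each library, so centring a library cannot alter them. The mean of the initiation factors by role was 6.22 ± 0.03 in fresh-frozen and 6.18 ± 0.03 log2 CPM in fixed libraries (SD, n = 4 each), and that of the elongation factors 7.51 ± 0.07 and 6.48 ± 0.04. No p is given for these class values, since members are not replicates.

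**Figure D3:**
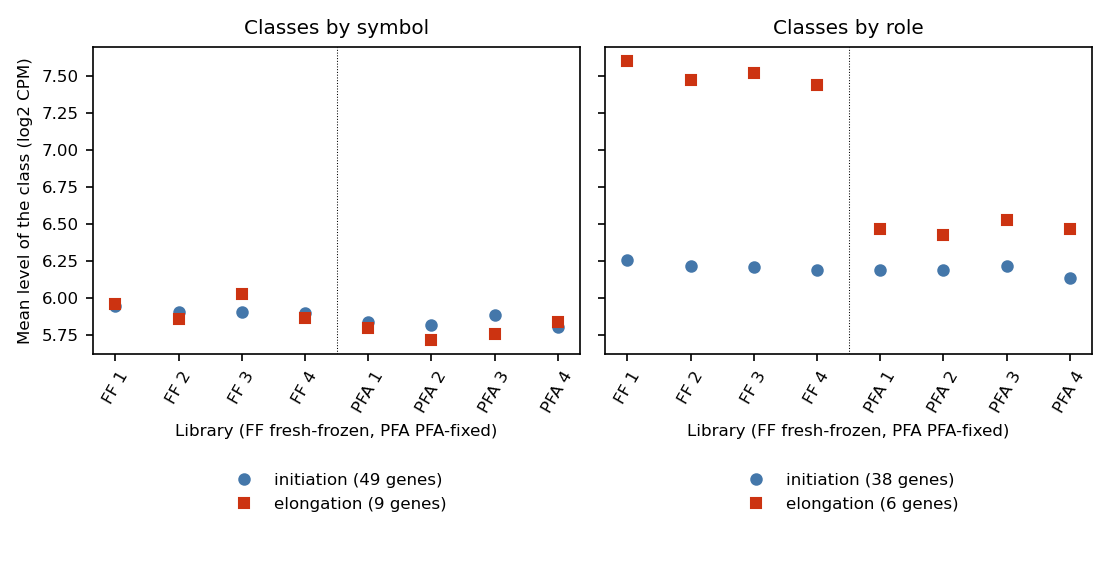
Mean level of initiation and elongation genes in each library (log2 CPM, y axis), with classes drawn by symbol (left) and by role (right), FF for fresh-frozen and PFA for PFA-fixed replicates. The 2 class means lie close together in all libraries by symbol, whereas by role the elongation mean falls from 7.51 to 6.48 and the initiation mean goes from 6.22 to 6.18.

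By role, the EIF5A pair counts as elongation, and 9 regulators and other genes with EIF symbols and 5 modifiers and partners with EEF symbols belong to neither class. The 5 with EEF symbols come first. EEF1AKMT2, a lysine methyltransferase of the tRNA-delivering factor, was at 5.23, 5.26, 5.28 and 5.10 log2 CPM in fresh-frozen and 6.5, 6.63, 6.59 and 6.46 in fixed libraries, a 2.51-fold rise (1.33 ± 0.07, SE; limma adjusted p = 2.37e-08). EEF1AKMT1 rose by 0.73, from 3.11 to 3.62 log2 CPM in fresh-frozen to 3.9 to 4.24 in fixed libraries. EEF1AKMT4 rose by 0.90 ± 0.28 (SE; limma adjusted p = 0.0127). Its fresh-frozen values of 1.5 to 2.10 log2 CPM met the fixed range of 2.10 to 3.40. Under rod-median scaling, EEF1AKMT1 and EEF1AKMT4 were higher by 0.25 and 0.42 and no longer called, and EEF1AKMT4 was not called under rod-mean scaling either (0.61). EEF2K, the kinase that inhibits the translocase, fell by 0.49 ± 0.08 (SE; limma adjusted p = 0.000238). EEF1E1, whose product sits in the complex of tRNA synthetases, differed by 0.04 (limma adjusted p = 0.748). Rod-median scaling made it a call at -0.44.

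Among the factors that bind the small subunit first, the paralogues EIF1 and EIF1B went opposite ways. eIF1 guards the choice of the start codon. EIF1 was at 7.07, 7.12, 6.97 and 7.02 in fresh-frozen and 6.84, 6.69, 6.80 and 6.69 log2 CPM in fixed libraries, a fall of 0.29 ± 0.06 on the log2 scale (SE; limma adjusted p = 0.00172). EIF1B was at 4.51, 4.51, 4.28 and 4.29 against 5.13, 5.0, 5.09 and 5.07, a rise of 0.67 ± 0.09 (SE; limma adjusted p = 4.41e-05) that remained positive at 0.19 but was not called under rod-median scaling. EIF1AX and EIF1AY, X- and Y-linked genes for eIF1A, fell by 0.34 and 0.38 on the log2 scale, and the call of EIF1AY ended after quantile normalization (-0.24, limma adjusted p = 0.0812). The 2 members of each of these pairs are close in sequence and can share reads, as can EIF4A1 and EIF4A2.

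eIF2 carries the initiator tRNA and is the substrate of the stress kinases. Its phosphorylated subunit gene EIF2S1 was at 5.53, 5.48, 5.15 and 5.32 log2 CPM in fresh-frozen and 4.98, 4.70, 5.04 and 4.60 in fixed libraries, and fell by 0.53 ± 0.12 (SE; limma adjusted p = 0.00203). The other subunit genes were not called. EIF2S2 differed by -0.10 and EIF2S3 by -0.02, with limma adjusted p-values of 0.235 and 0.834. In both genes the libraries of the groups overlapped. The proteins eIF2A and eIF2D can bring initiator tRNA without eIF2, and their genes diverged. EIF2A fell by 0.45, from 4.75 to 5.06 log2 CPM in fresh-frozen to 4.37 to 4.50 in fixed libraries. EIF2D rose by 0.67, from 4.36 to 4.60 to 5.07 to 5.20 log2 CPM (limma adjusted p = 2.5e-05), and was higher by 0.18 and not called under rod-median scaling.

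eIF2B recharges eIF2 with GTP and is what phosphorylated eIF2 blocks. Of its 4 measured subunit genes, 2 rose, none fell (50% called, against 68.7% of all genes) and the median was 0.28. EIF2B2 was at 4.45, 4.24, 4.30 and 4.41 in fresh-frozen and 5.04, 4.90, 4.96 and 4.92 log2 CPM in fixed libraries (0.60 ± 0.09, SE; limma adjusted p = 7.3e-05). EIF2B1 rose by 0.36, was not called under rod-mean scaling (0.07) and turned to -0.12 under rod-median scaling, where EIF2B2 was higher by 0.12 and not called. EIF2B4 differed by 0.18 (limma adjusted p = 0.163). EIF2B5 differed by 0.19 (limma adjusted p = 0.0749). Leaving out fresh-frozen replicate 2 (0.25) or PFA-fixed replicate 4 (0.24) turned this into a call, as did quantile normalization (0.21), median centring (0.27) and a block for the replicate number. The median of the eIF2B genes turned to -0.01 under rod-mean scaling and to -0.20 under rod-median scaling, where EIF2B5 was called at -0.29.

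eIF3 is the large scaffold that links the small subunit to the mRNA and the cap complex. Of 12 measured subunit genes, 5 fell, 2 rose and 5 were not called, the median being -0.16 and the range -0.87 to 0.39. As deposited, 58.3% of them were called, against 68.7% of all genes. Under rod-mean scaling 9 were called lower, under rod-median scaling 11, and none was called higher in either. Of all 12824 genes, 6305 and 7432 were called lower under these scalings. EIF3E had the largest fall. It was at 6.06, 6.06, 5.89 and 6.06 log2 CPM in fresh-frozen and 5.21, 5.09, 5.19 and 5.09 in fixed libraries (-0.87 ± 0.07, SE, 1.83-fold; limma adjusted p = 8.09e-07). EIF3G, EIF3L and EIF3F fell by 0.63, 0.61 and 0.57, and EIF3B by 0.31. In each of these 5 genes the groups did not overlap. EIF3A, the largest subunit, went the other way, at 8.42, 8.39, 8.34 and 8.33 against 8.68, 8.89, 8.79 and 8.69 log2 CPM. It rose by 0.39 ± 0.06 (SE; limma adjusted p = 0.000182) with the deposited scaling, was not called under rod-mean scaling (0.10) and turned to -0.09 under rod-median scaling. EIF3D, a subunit that can bind the cap itself, rose by 0.24 with the deposited scaling, turned to -0.05 under rod-mean scaling and to a called -0.25 under rod-median scaling. EIF3H, EIF3I, EIF3J, EIF3K and EIF3M were not called, with changes from -0.18 to 0.09. EIF3H was nonetheless lower in every fixed library, at 6.16 to 6.33 against 6.39 to 6.48 log2 CPM (limma adjusted p = 0.0673), and was called after quantile normalization (-0.18).

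**Figure D4:**
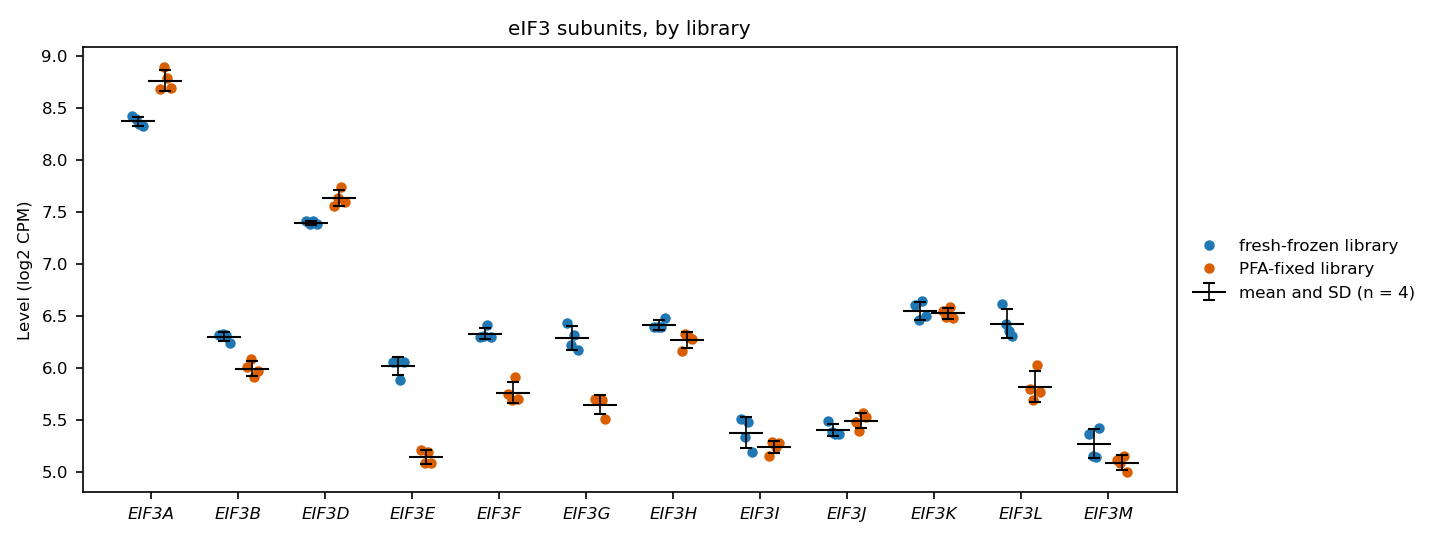
Level in log2 CPM (y axis) of the 12 measured eIF3 subunit genes in each library (points), with the mean and SD of each group of 4. EIF3E, EIF3F, EIF3G and EIF3L lie clearly lower in fixed libraries, EIF3A and EIF3D higher with the deposited scaling (EIF3D turns to -0.05 under rod-mean scaling, and EIF3A to -0.09 under rod-median scaling), and EIF3K and EIF3J overlap between the groups.

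EEF1A2, EEF1B2, EEF1D, EEF2, EIF3E, EIF3F and EIF3H are on the list of TOP mRNAs used here. TOP mRNAs start with a C and a run of pyrimidines, and their translation follows mTOR. The list was chosen with earlier results of these data known and may not hold every TOP mRNA among the members. Of these 7 members, 6 fell (34.7% of all genes) and none rose. Their median was -0.87, their range -1.28 to -0.14, and all 7 were lower without overlap (31.6% of all genes). The list shares 4 genes with the elongation factors described above, so its counts largely repeat theirs. Of the 51 other members, 14 rose and 20 fell, with a median of -0.10. Within eIF3, the 3 listed genes had a median of -0.57 and the other 9 subunit genes a median of -0.14. EIF3G and EIF3L fell by as much as EIF3F without being on the list.

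The eIF4 group binds the cap, unwinds the leader and bridges to eIF3. Of its 10 measured genes, 5 fell and 2 rose (70% called, against 68.7% of all genes). Under rod-mean and rod-median scaling, 7 and 8 were called lower, where 6305 and 7432 of all 12824 genes were. Both genes that rose as deposited encode relatives of the cap-binding protein. EIF4E2 encodes a cap-binding homologue that represses translation of its targets. It was at 5.87, 5.97, 5.91 and 5.91 log2 CPM in fresh-frozen and 7.15, 7.09, 7.11 and 7.14 in fixed libraries, a 2.31-fold rise (1.21 ± 0.06, SE; limma adjusted p = 8.51e-09). The libraries of each group lay close together and far from those of the other. EIF4E1B, best known from oocytes, was at 1.36, 1.24, 1.07 and 1.12 against 2.84, 3.29, 2.86 and 2.78 log2 CPM. It rose 3.36-fold (1.75 ± 0.18, SE; limma adjusted p = 4.63e-06), the largest rise among the members. At these low levels the size of the rise depended on the processing. It was 1.26 under rod-median scaling, 1.4 with 1 CPM added and 2.08 after quantile normalization. EIF4E3 overlapped between the groups (-0.08, limma adjusted p = 0.588). EIF4E itself, and EIF2B3, EIF3C and EEF1G among the core factors, had no entry under these symbols among the 12824 genes, so they were not analysed.

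Of the scaffold genes of the cap complex, 2 fell. EIF4G1 fell by 0.35, from 8.13 to 8.33 log2 CPM in fresh-frozen to 7.76 to 7.99 in fixed libraries. EIF4G2, a scaffold that lacks the part that binds eIF4E, was at 10.26, 10.29, 10.16 and 10.19 against 9.78, 9.77, 9.91 and 9.70 log2 CPM (-0.43 ± 0.07, SE; limma adjusted p = 0.000125). EIF4G3 differed by 0.09 (limma adjusted p = 0.189) with the deposited scaling, was called higher with median centring (0.16) and lower under rod-mean (-0.20) and rod-median (-0.40) scaling. The helicase genes EIF4A1 and EIF4A2 fell by 0.26 and 0.32. Of the helicase partners, EIF4B was at 9.0, 8.88, 9.01 and 8.85 against 8.33, 8.40, 8.44 and 8.34 log2 CPM (-0.56 ± 0.06, SE; limma adjusted p = 7.64e-06). EIF4H differed by 0.01 (limma adjusted p = 0.903). Rod-mean and rod-median scaling made it a call at -0.28 and -0.47.

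**Figure D5:**
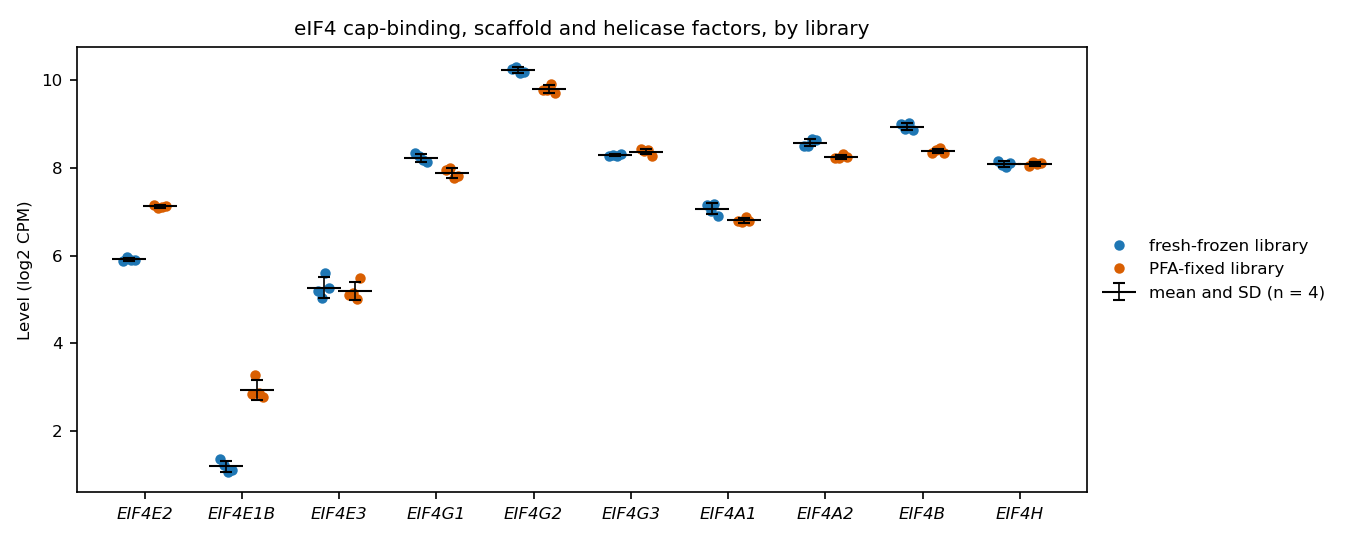
Level in log2 CPM (y axis) of the 10 measured eIF4 cap-binding, scaffold and helicase genes in each library (points), with the mean and SD of each group of 4. EIF4E2 and EIF4E1B are higher in all fixed libraries, EIF4B, EIF4G1, EIF4G2, EIF4A1 and EIF4A2 lower, and EIF4E3, EIF4G3 and EIF4H overlap.

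At the joining step, EIF5 and EIF5B moved apart. EIF5, which makes eIF2 hydrolyse its GTP at the start codon, was at 7.98, 8.05, 7.90 and 7.89 log2 CPM in fresh-frozen and 7.44, 7.37, 7.48 and 7.34 in fixed libraries (-0.55 ± 0.06, SE; limma adjusted p = 8.72e-06). EIF5B, the GTPase that joins the large subunit, was at 7.43, 7.67, 7.53 and 7.50 against 8.10, 8.18, 8.39 and 7.95. It rose by 0.62 ± 0.09 (SE; limma adjusted p = 8.63e-05), and was higher by 0.14 and not called under rod-median scaling. EIF6, which keeps the subunits apart until the large subunit is mature, differed by -0.22 (limma adjusted p = 0.155).

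Among the 7 measured regulators with an EIF symbol, 1 rose and 2 fell (42.9% called, against 68.7% of all genes). Their median of -0.17 turned to 0.06 after quantile normalization. The kinases of eIF2 differed. EIF2AK1, the heme-regulated kinase, was at 4.87, 4.97, 4.82 and 4.96 in fresh-frozen and 5.59, 5.48, 5.60 and 5.58 log2 CPM in fixed libraries (0.66 ± 0.08, SE; limma adjusted p = 1.03e-05), and was higher by 0.18 and not called under rod-median scaling. EIF2AK3, the kinase of the endoplasmic reticulum, was at 5.70, 5.72, 5.84 and 5.73 against 5.12, 5.21, 5.15 and 5.33 and fell by 0.55 ± 0.08 (SE; limma adjusted p = 5.44e-05). EIF2AK2, activated by double-stranded RNA, differed by -0.18 (limma adjusted p = 0.169). Of the proteins that hold back eIF4E, EIF4EBP2 fell by 0.21 (limma adjusted p = 0.0371). That call ended without fresh-frozen replicate 2 (-0.19) or 4 (-0.19), without PFA-fixed replicate 3 (-0.19) or 4 (-0.18), with the replicate block, and with quantile normalization or median centring. EIF4EBP1 and EIF4EBP3 overlapped between the groups, with changes of 0.24 and -0.17. After quantile normalization EIF4EBP1 was called higher (0.61), and under rod-mean scaling it was at -0.05. EIF4ENIF1, which carries eIF4E into the nucleus, differed by 0.09 (limma adjusted p = 0.33) with the deposited scaling and was called lower under rod-median scaling (-0.40). EIF4A3, the helicase of the exon junction complex, rose by 0.21 (limma adjusted p = 0.0345) with the deposited scaling. This call ended when replicate 2, 3 or 4 of either group was left out (0.16 to 0.21), with the block, and after quantile normalization. It also ended when limma was fitted without an intensity trend (limma adjusted p = 0.0581). EIF4A3 turned to -0.08 under rod-mean scaling and to a called -0.28 under rod-median scaling. EIF1AD, a nuclear protein with an eIF1A-like domain, fell by 0.33, a call that ended after quantile normalization (-0.14).

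Differences between paralogues within a library were compared next, because they do not depend on how libraries are centred. Of 8 pairs chosen, 7 were measured, and each was tested by exact two-sided permutation over 70 assignments of the libraries, whose smallest p is 0.0286. EIF1 minus EIF1B was 2.56, 2.61, 2.69 and 2.73 in fresh-frozen and 1.71, 1.69, 1.71 and 1.62 in fixed libraries, a shift of -0.96. EIF5A minus EIF5A2 was 1.86, 1.60, 2.51 and 1.71 against 2.82, 4.10, 2.83 and 2.97, a shift of 1.27. EEF1B2 minus EEF1D went from -0.43 ± 0.12 to 0.49 ± 0.27, and EIF4G1 minus EIF4G3 from -0.06 ± 0.10 to -0.49 ± 0.10 (SD, n = 4 each). In these 4 pairs the groups did not overlap, with an exact permutation p of 0.0286 each. The adjusted p was 0.05 over the 7 pairs, which does not lie under the threshold of 0.05. As 0.0286 is the smallest p this test can give, complete separation in these 4 pairs could not pass the threshold by itself. The shift was 0.06 for EIF4A1 minus EIF4A2 (exact permutation p = 0.6), 0.08 for EIF4G1 minus EIF4G2 (p = 0.4) and 0.45 for EIF4EBP1 minus EIF4EBP2 (p = 0.143), with adjusted values of 0.6, 0.467 and 0.2 over the 7 pairs.

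Other genes of the pathway also went in both directions, with 61.5% to 88.9% of a list called against 68.7% of all genes. Of 7 measured genes of termination, recycling and rescue, 4 rose and 2 fell, with a median of 0.27 that moved to -0.02 (rod-mean, 1 higher and 3 lower) or -0.21 (rod-median, 0 and 3). DENR, which helps recycle the small subunit, rose by 0.67 (not called under rod-median scaling, 0.18), and GSPT2, a termination factor, fell by 0.41 (not called after quantile normalization, -0.17). Of 9 mitochondrial translation factors, 6 rose and 2 fell, with a median of 0.32 that moved to 0.03 (rod-mean, 2 higher and 2 lower) or -0.16 (rod-median, 1 and 3). The mitochondrial initiation factor MTIF2 rose by 1.06 and the elongation factor TSFM fell by 0.62. Of 9 measured poly(A)-binding and scanning partners, 6 rose and 2 fell, with a median of 0.24 that moved to -0.05 (rod-mean, 2 higher and 3 lower) or -0.24 (rod-median, 1 and 4). ABCF1, a partner of eIF2, rose by 0.72, and TPT1, itself a TOP mRNA, fell by 1.03.

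Of 13 genes of mTOR and eIF4F control, 5 rose and 3 fell, with a median of 0.05 that moved to -0.24 (rod-mean, 3 higher and 7 lower) or -0.43 (rod-median, 0 and 8). The kinase gene RPS6KB2 rose by 0.73 (not called under rod-median scaling, 0.24), and RHEB, which activates mTOR, fell by 0.74. Of 6 measured genes for hypusine, which activates eIF5A, and for diphthamide, a modification of eEF2, 2 rose and 3 fell. Their median of -0.32 moved to -0.08 after quantile normalization (2 higher and 2 lower), -0.61 under rod-mean and -0.80 under rod-median scaling (2 higher and 4 lower in each). DHPS, which makes hypusine, fell by 0.92, and the diphthamide gene DPH6 rose by 1.44. Of 21 measured genes for cytosolic tRNA synthetases and their scaffold, 4 rose and 10 fell, a share of calls (66.7%) close to that of all genes. Their median of -0.19 moved to -0.11 with median centring (5 higher and 6 lower), -0.48 under rod-mean (1 and 15) and -0.67 under rod-median scaling (0 and 17). KARS1 fell by 0.78 and GARS1 rose by 0.68 (not called under rod-median scaling, 0.20).

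Both rod scalings moved the whole table, with a median over all genes of -0.31 (rod-mean) and -0.50 (rod-median) against -0.02 as deposited. The members' medians moved with it, to -0.46 and -0.66, and so stayed about as far below that of all genes. Of the members not called as deposited, 10 were called under rod-mean and 16 under rod-median scaling. EIF4E1B, EIF4E2 and EEF1AKMT2 were called higher, and 23 members lower, under every alternative run that tested them. Of the 56 members found in the reference gene table, 12 overlap another protein-coding gene, among them EIF1B, EIF2A, EIF2B2, EIF2AK1, EIF3G, EIF4A2 and EIF1AD. The reads of these 12 may not be fully separate, because the strand setting is not given in the sources used here.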

How the data were processed

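Retina of 4 fresh-frozen and 4 PFA-fixed samples was sequenced as total RNA with a stranded low-input kit, per the labels' protocols. Per the submitters' processing notes, the authors used kallisto 0.48.0, edgeR and limma, with no role or order given. The transcript reference, genome build, strand setting and filter were not given in the sources used here, so no coordinates are printed. The deposited values are log2 CPM for 12824 genes, and the lowest is -3.12. Effective depth was estimated from the spacing of low CPM values (search range 0.03 to 0.15 CPM per read). Only 60.9% to 68.5% of low values were whole reads to within 0.1 of a read, so no count test was run.

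Limma 3.58.1 in R 4.3.3 with an intensity trend was fitted to all genes with group as the only term and Benjamini-Hochberg adjustment at 0.05. The fit was also run on simulated data in which far fewer genes changed than here, so no support is drawn from that run. Members and lists were chosen with earlier results of these data known. Named genes were, for each role list, the 2 highest in level and the largest called rise and fall, the members of 8 pairs, the elongation factors, the 5 largest rises and falls, and the largest called rise and fall of 6 lists of other pathway genes. The remaining members are named to account for all of them. Groups were taken from the sample titles. Alternatives were leaving out each library, a replicate block, 4 scalings, a minimum mean of 3 log2 CPM, adding 1 CPM, and no trend. Gene symbols were matched to the table of assembly UU_Cfam_GSD_1.0 (12495 matched). It was used for names and overlapping neighbours. The planned comparison with protein length was not made.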

Additional observations from a re-analysis of the deposited data

Results flagged for a closer look

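In 4 of 106 groups of 4 libraries, taken over the named genes, a single library lay far from the other 3. Chance flags about 1 group in 20, so this number is not above it. EIF5A2 was at 2.40 log2 CPM in PFA-fixed replicate 2 and at 3.32 to 3.46 in the other fixed libraries. Without that library its fall remained called (-1.53). EIF4E1B was at 3.29 in PFA-fixed replicate 2 and at 2.78 to 2.86 in the others, and its rise without that library was 1.63. EIF3E was at 5.89 in fresh-frozen replicate 3 and at 6.06 in each of the others. EIF2B5 was at 5.68 in fresh-frozen replicate 2 and at 5.43 to 5.45 in the others, and it was called higher without that library (0.25).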

How the results depend on the processing

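The 6 elongation factors by role fell in every alternative run, with a median of -1.25 after quantile normalization, -1.42 under rod-mean scaling and -1.61 under rod-median scaling, and of -1.19 to -1.04 without single libraries. The difference between the median changes of elongation and initiation genes was -0.18 by symbol and -0.99 by role, and -0.31 and -1.15 after quantile normalization. Medians of initiation factors were -0.09 by symbol after quantile normalization and after median centring, and -0.06 by role after median centring. The median of all members was -0.10 with both. Under rod-mean scaling, all genes counted 2609 higher, members 9 higher (median -0.46), EIF genes 7 higher (median -0.46), EEF genes had a median of -0.65, and initiation factors by role counted 25 lower (median -0.43). Under rod-median scaling, all genes counted 1726 higher and 7432 lower, members 3 higher and 44 lower (median -0.66), EIF genes 2 and 38 (median -0.66), and EEF genes 1 higher (median -0.84). Initiation factors by role then counted 2 and 29 (median -0.62). These shifts follow from moving every gene of a library by the same amount. Among the members, signs turned under rod-mean scaling for EEF1E1 (-0.25), EIF3J (-0.20), EIF4H (-0.28), EIF2B5 (-0.10), EIF2B4 (-0.11), EIF3D (-0.05), EIF4ENIF1 (-0.20), EIF4A3 (-0.08), EIF4G3 (-0.20) and EIF4EBP1 (-0.05). Under rod-median scaling they turned for EEF1E1 (-0.44), EIF3J (-0.39), EIF4H (-0.47), EIF2B1 (-0.12), EIF2B5 (-0.29), EIF2B4 (-0.30), EIF3A (-0.09), EIF3D (-0.25), EIF4ENIF1 (-0.40), EIF4A3 (-0.28), EIF4G3 (-0.40) and EIF4EBP1 (-0.24). After quantile normalization they turned for EIF4G3 (-0.03), EIF4H (-0.06) and EIF4EBP3 (0.21). EIF2S3 was at 0.06 with median centring and at -0.04 to 0.01 without single libraries. EIF4A1 minus EIF4A2 ranged from -0.01 to 0.12 without single libraries. Those smaller designs cannot give an exact p under 0.0571, so pairs were then compared by value only.

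The replicate number as a block gave 4336 genes higher and 4463 lower, and 14 members higher and 25 lower. It ended the calls of EIF4A3 and EIF4EBP2 and called EIF2B5. Deviations of same-numbered libraries correlated at 0.05, 0.149, -0.089 and 0.224 over genes for numbers 1 to 4, and among fresh-frozen libraries only replicate 4 correlated best with its own number, so the numbers were not taken as pairs. A minimum mean of 3 log2 CPM left 54 members to test, and neither it nor the added 1 CPM changed the call of a member it tested. Among members, the fit without a trend ended only the call of EIF4A3. Depth limits EIF4E1B, EEF1AKMT4, EIF4EBP1 and EIF4EBP3 most.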
